A study of Mus musculus with 6 samples.

Results

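Interferon-stimulated genes are the genes that cells switch on when interferon binds its receptor, and 32 of them were followed here by gene symbol in wild-type (WT) and Mcph1-/- mouse hematopoietic stem cells. They were taken from a list of symbols, with no measured value in the rule. All 32 are among the 11108 genes of the deposited table, and all 32 were tested. They comprise 3 RNA sensors and 6 enzymes or enzyme-like proteins that act on or are activated by double-stranded RNA. The others are 3 transcription factors, the ISG15 modifier and its protease, 3 GTPases, and 15 other effectors.

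Both groups are bone marrow cells sorted as lineage-negative, Sca-1+, c-kit+, CD34- and CD150+ cells, with 3 WT and 3 Mcph1-/- libraries of 200 cells each. Mcph1 is the gene of microcephalin, which acts in DNA damage signalling and in the timing of chromosome condensation. The sources used here give neither the age of the mice nor the kind of Mcph1 allele, nor whether each library came from its own animal, so p-values speak only of spread among these libraries, and that spread may be technical. Values are normalised read counts, that is reads per gene divided by a size factor for each library, and log2 fold changes are Mcph1-/- over WT on the log2(value + 1) scale. In RNA from pooled cells, fewer expressing cells and less RNA per cell cannot be told apart.

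Type I interferons bind a receptor of Ifnar1 and Ifnar2 chains, whose kinases Jak1 and Tyk2 phosphorylate Stat2. Stat2 and Irf9 are parts of a complex that binds the interferon-stimulated response element (ISRE) in the promoters of its target genes. Stem cells are known to keep part of this programme on without infection, and interferon is known to drive resting stem cells into cycle.

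Libraries held 8102605 to 10455908 reads on listed genes, and reads were found for 10209 to 10335 genes in WT and 10516 to 10777 in Mcph1-/-. Every one of 12 stem cell markers is listed, and 1 of them had no reads in 1 library. It was Slamf1, the gene of the CD150 antigen used in the sort. Slamf1 stood at 0, 224 and 497 in WT and 65.7, 395 and 0.89 in Mcph1-/-. The summed value of the 12 was 19086 to 22890 in WT and 14973 to 16642 in Mcph1-/-. Of 15 neutrophil markers 7 are listed, and their summed value was 58564 to 67847 in WT and 3287 to 18724 in Mcph1-/-. S100a8, S100a9, Ngp and Camp were lower in every Mcph1-/- library, and Prtn3, Elane and Mpo overlapped. For monocyte and macrophage markers, 4 of 10 are listed, with sums of 8091 to 13169 and 4976 to 5337. Most of these sums was Lyz2 (7454 to 12241 in WT and 4400 to 4628 in Mcph1-/-), while Ctss was higher in every Mcph1-/- library (19.5 to 184 against 191 to 262) and Cd68 and Ms4a6c overlapped. The groups overlapped for markers of B cells (3 of 6 listed), T and NK cells (1 of 7) and megakaryocytes (5 of 5). Sums over 7 of 8 erythroid markers were 2487 to 15726 in WT and 27912 to 35583 in Mcph1-/-. Most of the Mcph1-/- sums was Car1 (23716 to 31845, against 1628 to 4566 in WT). Klf1 and Gata1 were also higher in every Mcph1-/- library, Hba-a1 was lower in every one (55.0 to 185 against 251 to 8516), and Epor and Hbb-bt overlapped. Of the defining markers of plasmacytoid dendritic cells, a strong source of interferon, 1 of 8 (Tcf4) is listed, at 224 to 414 in WT and 418 to 568 in Mcph1-/-. Mcph1 itself had normalised read counts of 160.5, 341 and 34.4 in WT and 428, 37.7 and 234 in Mcph1-/-. Since the deleted part is not stated, these values cannot test the genotype, and Mcph1-/- throughout means the libraries labelled so.

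No interferon-stimulated gene passed the test over all genes. With limma, 0 of 32 had an adjusted p under 0.05, against 0.0369% of the 10846 genes tested. Without adjustment, 4 of 32 had p under 0.05 by limma, against 7.71% of all genes. Those 4 were Usp18, Bst2, Ifitm3 and Ifi35, all lower in Mcph1-/-, a direction in which 3.55% of all genes had such a p. They were also the 4 members whose WT values all lay above the Mcph1-/- values, which held for 6.8% of all genes. For 0 members did the Mcph1-/- values all lie above WT, against 7.4% of all genes. edgeR's quasi-likelihood test called 0 members and 0.0184% of all genes. DESeq2 called 1 member, Usp18, and 2.19% of all genes. The median log2 fold change of the 32 was -0.23, with 12 higher and 20 lower in Mcph1-/-, beside a median of 0.08 over all genes tested, of which 46.2% were lower.

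**Figure D1:**
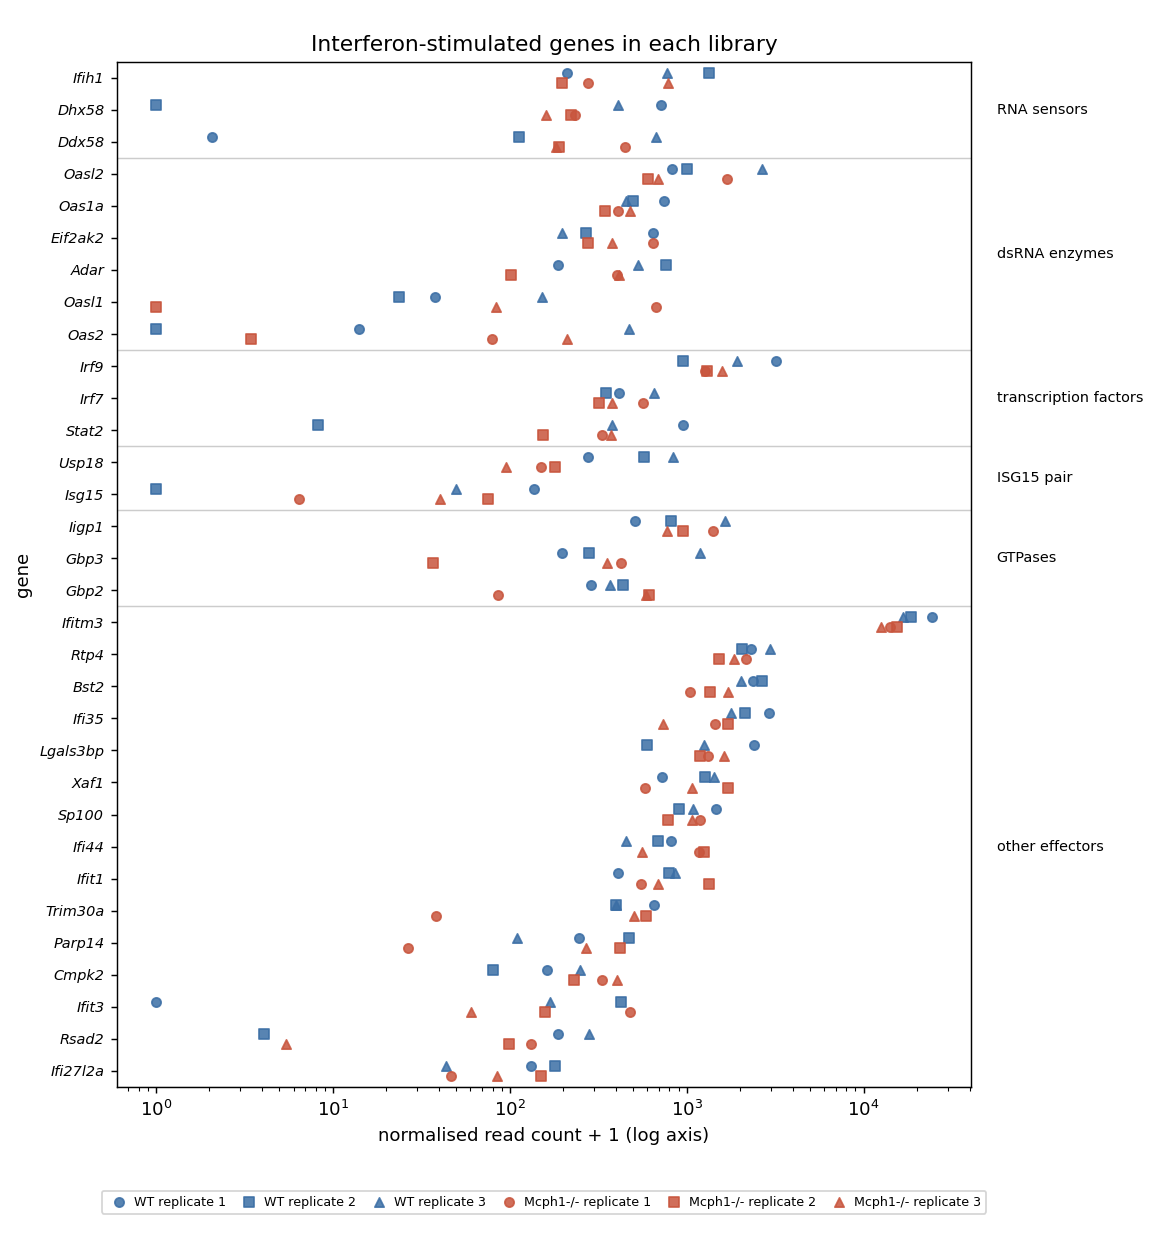
Normalised read count plus 1 (log axis) of the 32 interferon-stimulated genes, 1 point per library, blue for WT and red for Mcph1-/-, with marker shapes for replicates 1 to 3. Ifitm3 lies far to the right of every other gene, and points at the left edge are libraries with 0 reads.

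Levels were first compared between genes per kilobase of annotated exon. Ifitm3 stood at 25063 normalised reads per kilobase on average over the 6 libraries (range 18446 to 36073). It was followed by Bst2 at 2061 (1150 to 2965), Ifi35 at 1037 (428 to 1683) and Rtp4 at 1009 (718 to 1396), whose ranges overlap one another. Lgals3bp at 491, Irf9 at 317, Ifit1 at 291 and Oas1a at 259 came next. At the low end were Ddx58 at 37.9, Oas2 at 29.0, Parp14 at 27.5 and Rsad2 at 27.0, in whose ranges (0.154 to 95.5 for Ddx58, 0.713 to 64.9 for Rsad2) the order cannot be read.

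Large differences between libraries of 1 genotype were frequent among the low genes, the sensors included. RIG-I, encoded by Ddx58, recognises viral RNA that lacks a cap and signals for interferon production. Ddx58 had 1.08, 112 and 673 in WT and 445, 189 and 182 in Mcph1-/-. The lowest and the highest value were both WT. Its log2 fold change, 2.20 (SE 1.94), has a 95% interval of -2.27 to 6.67. The means were 262 and 272, edgeR gave 0.091 and DESeq2 0.051, and without 1 library limma gave values down to -0.15. MDA5, encoded by Ifih1, senses long double-stranded RNA. Ifih1 stood at 210.4, 1332 and 777 in WT and 277, 197 and 785 in Mcph1-/-, with overlapping groups (log2 fold change -0.78, SE 0.78). LGP2, encoded by Dhx58, lacks the signalling domain of the other sensors and modulates them. Dhx58 stood at 717, 0 and 407 in WT and 234, 219.8 and 159 in Mcph1-/-. The 0 in WT replicate 2 allows a value of up to 3.09 (3 reads, counting error only). The means were 375 (WT) and 204 (Mcph1-/-), while the mean log value was higher in Mcph1-/- (log2 fold change 1.61, SE 2.29), and without WT replicate 2 the log2 fold change is -1.42.

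Enzymes of double-stranded RNA and their like proteins also overlapped between genotypes. The oligoadenylate synthetases make a second messenger that activates RNase L. Oas1a, the steadiest of them, stood at 743, 499 and 450.5 in WT and 409, 343 and 480.3 in Mcph1-/-. Its log2 fold change was -0.44 (SE 0.40), and 1 Mcph1-/- value exceeded 1 WT value. Oas2 stood at 13.0, 0 and 469.7 in WT and 78.5, 2.46 and 209.8 in Mcph1-/-, so that each genotype had both a library near 0 and one above 200. Not all of the like proteins of this family have that activity. Oasl1, which restrains translation of Irf7, stood at 36.9, 22.7 and 152 in WT and 674, 0 and 83.0 in Mcph1-/-. Oasl2 stood at 829, 1000.4 and 2667 in WT and 1681, 606 and 685 in Mcph1-/-, with overlapping groups (log2 fold change -0.55, SE 0.54). Eif2ak2, the kinase PKR that halts translation on double-stranded RNA, stood at 648, 268 and 196 in WT and 642, 276 and 376 in Mcph1-/-. The genotypes spanned nearly the same range, and the log2 fold change was 0.32 (SE 0.60). Adar, which edits adenosine to inosine in double-stranded RNA and so hides self RNA from MDA5, stood at 187, 767 and 528 in WT and 402, 100.1 and 412 in Mcph1-/- (log2 fold change -0.73, SE 0.77).

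The transcription factors were read in every library. Irf9, the DNA-binding subunit of the interferon-activated complex, stood at 3208, 956 and 1914 in WT and 1272, 1304 and 1594 in Mcph1-/-. The 3 Mcph1-/- values lay inside the WT range (log2 fold change -0.38, SE 0.41). Stat2, its signalling partner, stood at 954, 7.21 and 379.6 in WT and 330.2, 154 and 371 in Mcph1-/-. WT replicate 2 rests on 7 reads, and the log2 fold change of 0.89 (SE 1.62) is of the opposite sign to that of the means, 447 and 285. Irf7, which amplifies interferon production, stood at 414, 349 and 653 in WT and 565, 319 and 377 in Mcph1-/- (log2 fold change -0.16, SE 0.45). Neither Irf9 nor Irf7 differed by more than the spread between libraries, and their 95% intervals were -1.32 to 0.56 and -1.19 to 0.87.

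**Figure D2:**
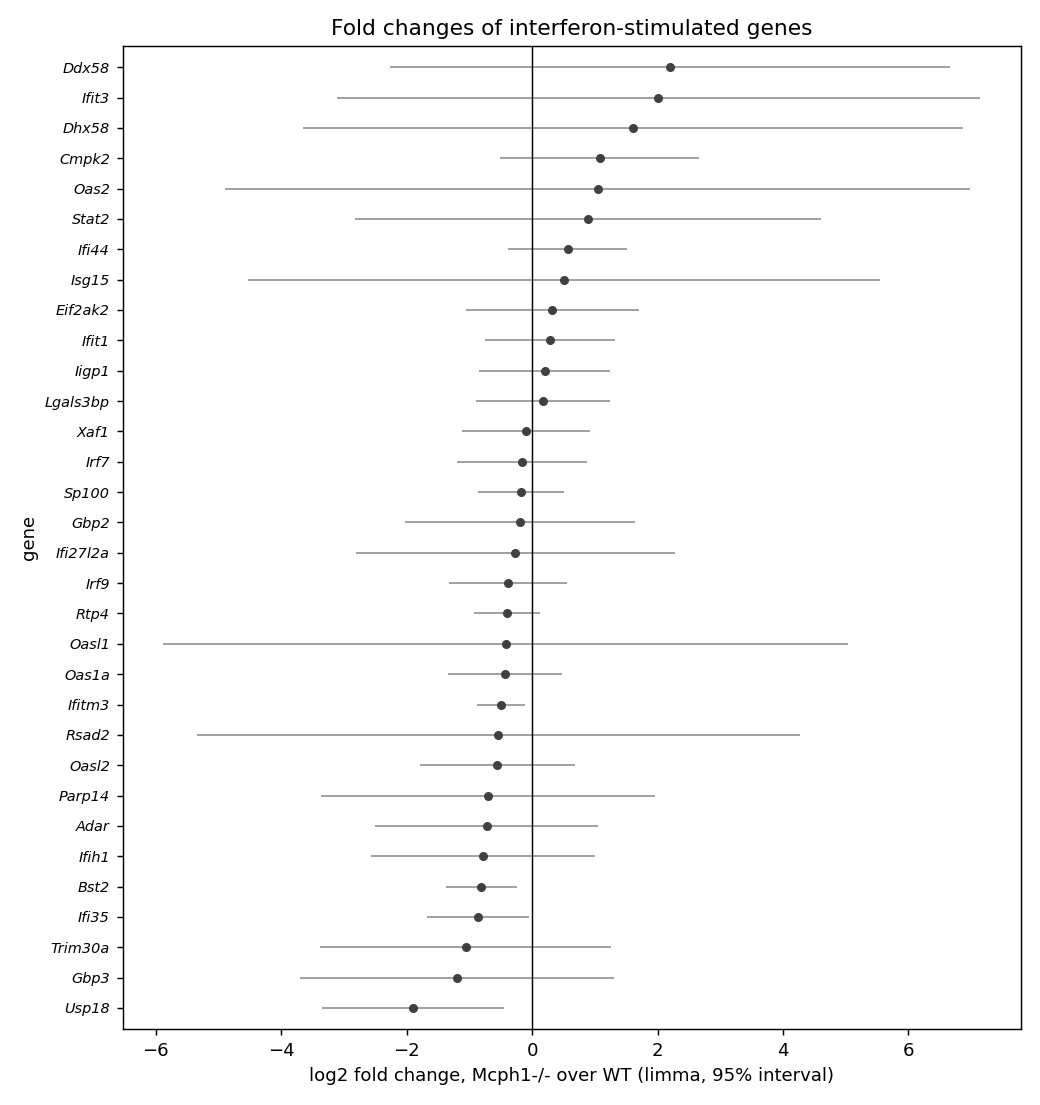
Log2 fold change (Mcph1-/- over WT) of each of the 32 genes with its 95% interval from limma, unadjusted for the number of genes, in order of size. The intervals of Usp18, Ifi35, Bst2 and Ifitm3 lie below 0, and none lies above 0.

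The ISG15 system attaches a ubiquitin-like protein to others, and Usp18 takes it off again and also blocks signalling at the Ifnar2 chain. Usp18 had the largest difference toward WT among the 32. Usp18 stood at 277, 577 and 839 in WT and 149, 180.5 and 94.6 in Mcph1-/-. Every WT library was above every Mcph1-/- library, with means of 564 ± 282 and 141 ± 43.4 (SD, n = 3), 3.99-fold apart. The log2 fold change was -1.90 (SE 0.63, 95% interval -3.36 to -0.44; in limma, adjusted p = 0.626). DESeq2 gave an adjusted p of 0.029, and over all alternatives its adjusted p ranged from 0.029 to 0.858. Usp18 is at chromosome 6, 121245906 to 121270917, plus strand (mm10), and 124 bases of its exons overlap the antisense gene Gm44148. Isg15 stood at 137, 0 and 48.6 in WT and 5.47, 74.6 and 39.3 in Mcph1-/-. It rests on 126, 0 and 48 reads in WT and 6, 91 and 44 in Mcph1-/-, and no direction can be read from it (log2 fold change 0.51, SE 2.19).

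Among the effectors, Bst2, Ifitm3 and Ifi35 were the other members without overlap between genotypes. Bst2, or tetherin, holds budding virions at the cell surface. It stood at 2373, 2678 and 2019 in WT and 1038, 1349 and 1707 in Mcph1-/-. All WT values were higher, by 1.73-fold in the means, and the log2 fold change was -0.81 (SE 0.25, 95% interval -1.38 to -0.23; in limma, adjusted p = 0.617). Ifitm3 encodes a membrane protein that blocks fusion of viruses with endosomes. It stood at 24457, 18655 and 16766 in WT and 14107, 15464 and 12507 in Mcph1-/-. The lowest WT library was above the highest Mcph1-/- library. The means were 1.42-fold apart, and the log2 fold change was -0.50 (SE 0.17, 95% interval -0.88 to -0.11; in limma, adjusted p = 0.626). Ifi35, a partner of the interferon-induced protein Nmi, stood at 2907, 2150.1 and 1785 in WT and 1455, 1710.3 and 738 in Mcph1-/-. The nearest libraries of the genotypes, at 1785 and 1710.3, were close, and the log2 fold change was -0.87 (SE 0.35, 95% interval -1.68 to -0.06; in limma, adjusted p = 0.639). Without Mcph1-/- replicate 3 it was -0.50. Of its exons, 290 bases overlap the antisense gene Gm11626, and no strand setting is given. The same Mcph1-/- libraries had lower sums of stem cell and neutrophil markers, lower Lyz2 and Hba-a1, and higher Car1, Klf1, Gata1, Ctss and Tcf4, as given above, and the part of these in the lower values was not tested.

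Ifitm3 is at chromosome 7, 141009586 to 141010770, minus strand (mm10), in a cluster with Ifitm1 and Ifitm2. Ifitm2 stood at 32430.2, 25472 and 23356 in WT and 18408, 18691 and 16056 in Mcph1-/-, with no overlap (log2 fold change -0.60, SE 0.15; in limma, adjusted p = 0.540). DESeq2 called it (adjusted p = 0.0045), and no other alternative did. Of its exons, 268 bases overlap Gm45717, a gene on the same strand. Ifitm1 stood at 41661, 38286 and 28659.5 in WT and 29205, 22222 and 23462 in Mcph1-/-, where the groups overlap in 1 library each (log2 fold change -0.53, SE 0.17; in limma, adjusted p = 0.626). Ifitm2 and Ifitm3 are similar in sequence, so reads could be split between them and each is uncertain, as are Oas1a and Trim30a among the close copies of their families.

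**Figure D3:**
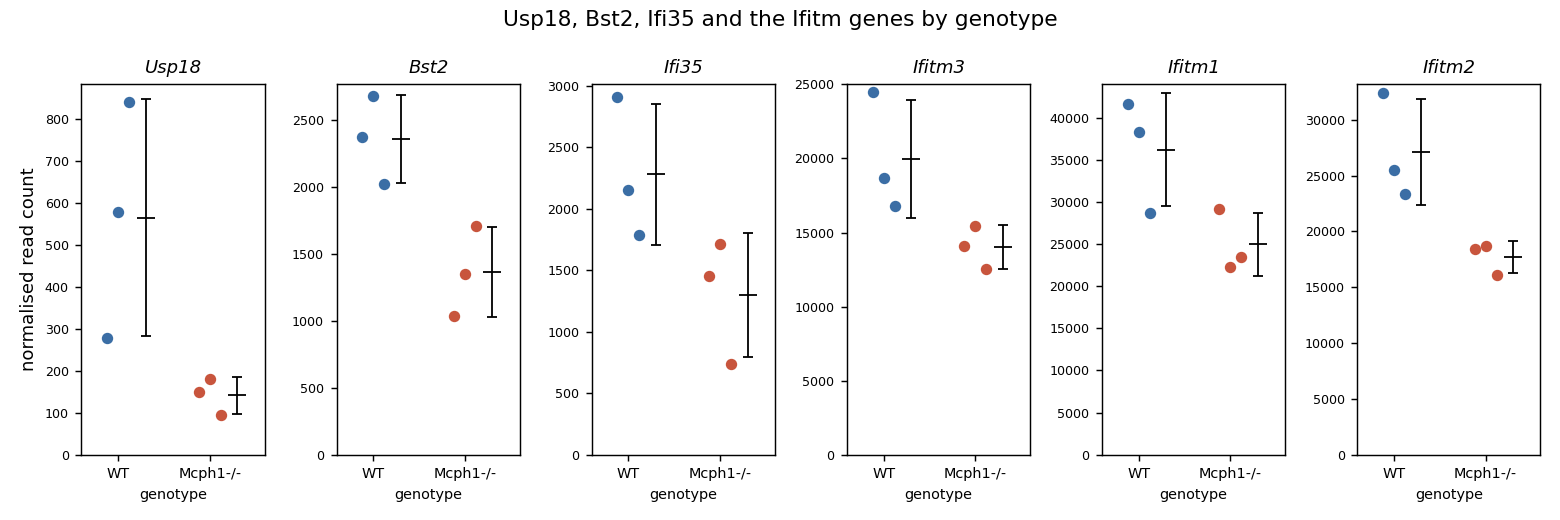
Normalised read count of Usp18, Bst2, Ifi35, Ifitm3 and the Ifitm3 neighbours Ifitm1 and Ifitm2 in each library (points, linear axes from 0), with mean and SD of 3 libraries beside them. In every panel but that of Ifitm1 the 3 WT points lie above the 3 Mcph1-/- points.

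Some promoters of these genes have letters that match the ISRE, and binding was not measured. Printed below are 4 windows, to compare Bst2 and Ifitm3, with matches, with Ifi35, without one, and with the textbook target Isg15. Sequences are RefSeq windows of build GRCm38.p6 (mm10), 250 bases before to 50 after the start site, 5′ to 3′ on the gene's strand, with capitals for matches to GAAANNGAAA or its reverse strand TTTCNNTTTC. Matches that overlap run together. The Bst2 window is chr8:71537423-71537722 (minus strand), that of Ifitm3 chr7:141010695-141010994 (minus), that of Ifi35 chr11:101448162-101448461 (plus) and that of Isg15 chr4:156200769-156201068 (minus).
Bst2: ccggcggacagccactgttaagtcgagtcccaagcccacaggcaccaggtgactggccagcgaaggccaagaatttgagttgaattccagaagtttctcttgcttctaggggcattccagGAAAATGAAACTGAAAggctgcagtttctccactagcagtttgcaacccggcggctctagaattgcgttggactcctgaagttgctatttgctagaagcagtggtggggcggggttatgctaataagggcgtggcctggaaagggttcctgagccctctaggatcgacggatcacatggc
Ifitm3: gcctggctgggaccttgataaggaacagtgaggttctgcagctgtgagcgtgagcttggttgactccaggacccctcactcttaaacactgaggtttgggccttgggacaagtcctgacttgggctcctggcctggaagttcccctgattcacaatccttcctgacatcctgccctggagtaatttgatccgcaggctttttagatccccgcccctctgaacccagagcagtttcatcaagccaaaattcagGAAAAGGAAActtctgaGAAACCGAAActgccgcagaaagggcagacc
Ifi35: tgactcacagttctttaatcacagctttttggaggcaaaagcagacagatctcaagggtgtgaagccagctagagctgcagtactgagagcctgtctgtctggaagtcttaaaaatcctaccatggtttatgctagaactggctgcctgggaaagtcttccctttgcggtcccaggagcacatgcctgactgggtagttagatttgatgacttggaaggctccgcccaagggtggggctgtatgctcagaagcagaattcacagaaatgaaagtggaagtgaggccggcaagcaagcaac
Isg15: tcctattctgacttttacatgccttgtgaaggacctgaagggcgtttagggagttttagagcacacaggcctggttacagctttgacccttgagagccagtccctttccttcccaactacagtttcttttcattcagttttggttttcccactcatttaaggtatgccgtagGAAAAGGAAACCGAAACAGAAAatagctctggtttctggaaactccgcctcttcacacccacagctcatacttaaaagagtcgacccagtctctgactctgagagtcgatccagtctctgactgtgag

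Bst2 held 2 overlapping matches, which begin 130 and 124 bases before the start site. Ifitm3 held 2 just after it, which begin 2 and 19 bases past the start base. Isg15 held 3 overlapping matches from 78 to 66 bases before the start. No stretch of the Ifi35 window has these letters, which says nothing of the factors that act there. Windows were found for 25 of the 32 genes, not for Usp18, Dhx58, Oas2, Rtp4, Parp14, Ifi27l2a and Iigp1. A match was present in 14 of these 25 genes (56.0%), compared with 3.99% of 27025 genes with a window of the same length. The 14 genes with an ISRE match stood at a median of -0.31 on the log2 scale (8 of 14 lower) and the 11 without one a median of -0.17 (8 of 11 lower).

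Shorter windows show such a match in 5 other members, printed as examples, with 8 bases on each side of the match in capitals. Gbp3, Ifih1, Ifit3, Oas1a, Rsad2 and Trim30a also have a match and are not printed. No member, with or without a match, passed the test by limma. The match of Gbp2 and that of Ifit1 have the same letters.
Gbp2: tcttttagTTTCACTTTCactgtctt
Ifit1: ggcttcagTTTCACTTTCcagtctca
Stat2: caccctggTTTCAGTTTCctttccct
Ddx58: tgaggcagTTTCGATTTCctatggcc
Eif2ak2: tccgccggGAAAACGAAAcagaagag

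The Gbp2 match lies at chr3:142620604-142620613, the first of Ifit1 at chr19:34640785-34640794, and that of Stat2 at chr10:128270276-128270285. Those of Ddx58 and Eif2ak2 lie at chr4:40239814-40239823 and chr17:78882545-78882554, 2 and 18 bases past their start bases.

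The remaining effectors were either steady across libraries or scattered within genotypes. Rtp4, a chaperone that restricts some RNA viruses, stood at 2309.9, 2054 and 2975 in WT and 2175, 1529 and 1854 in Mcph1-/- (log2 fold change -0.40, SE 0.23). Sp100, a scaffold of nuclear bodies, stood at 1457, 899 and 1087 in WT and 1197, 782 and 1065 in Mcph1-/- (log2 fold change -0.17, SE 0.30). Rtp4, Sp100 and Ifitm3 are the 3 members whose 95% intervals lie within 1 log2 unit of 0 on both sides, so that a larger change lies outside those intervals. Xaf1, which promotes apoptosis by opposing the inhibitor Xiap, overlapped between genotypes (log2 fold change -0.09, SE 0.44), as did the secreted glycoprotein Lgals3bp (0.17, SE 0.47). Ifi44, a cytoplasmic antiviral protein, stood at 819.8, 688 and 450.5 in WT and 1169, 1260.0 and 562 in Mcph1-/-, the second of these groups reaching higher but overlapping the first (log2 fold change 0.57, SE 0.41).

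Ifit1, which binds RNA that lacks self cap marks, stood at 409.9, 789 and 861 in WT and 549, 1337 and 692 in Mcph1-/- (log2 fold change 0.29, SE 0.45). Its partner Ifit3 was read at 0 in WT replicate 1, which allows up to 3.25 (counting error only), and at 422 and 167 in the other WT libraries. In Mcph1-/- it stood at 479, 158 and 59.8, and its means were 196 and 232. The log2 fold change is 2.01 (SE 2.23), and -0.68 without WT replicate 1. Reads of Ifit3 could be shared with its near-identical copy Ifit3b. Rsad2, or viperin, makes a nucleotide that stops viral RNA synthesis, and its neighbour on chromosome 12, Cmpk2, supplies the precursor. Rsad2 stood at 187, 3.09 and 281 in WT and 130.4, 97.6 and 4.46 in Mcph1-/-. Cmpk2 stood at 162, 79.3 and 250 in WT and 331, 231 and 401 in Mcph1-/-, with overlapping groups (log2 fold change 1.08, SE 0.69; in limma, adjusted p = 0.696). The neighbours were thus lowest in WT replicate 2 alike, but Rsad2 was near 0 in Mcph1-/- replicate 3, where Cmpk2 was highest.

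Trim30a, a ubiquitin ligase that dampens inflammatory signalling, stood at 655, 398 and 397 in WT and 37.4, 592 and 502 in Mcph1-/-. Parp14, an ADP-ribosyltransferase, stood at 245, 471 and 109 in WT and 25.5, 418 and 269 in Mcph1-/-. Both were lowest in Mcph1-/- replicate 1 and otherwise overlapped, with log2 fold changes of -1.06 (SE 1.01) and -0.70 (SE 1.16). Ifi27l2a, a small membrane protein, stood at 130.1, 180.3 and 42.5 in WT and 45.6, 149 and 83.9 in Mcph1-/- (log2 fold change -0.27, SE 1.11).

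The GTPases, which attack the vacuoles of intracellular pathogens, showed no common direction. Gbp2 stood at 287, 437 and 368 in WT and 84.8, 613 and 590.2 in Mcph1-/-, where the lowest and the 2 highest values were all Mcph1-/- (log2 fold change -0.19, SE 0.80). Gbp3 stood at 196, 280.2 and 1191 in WT and 423, 36.1 and 352 in Mcph1-/- (log2 fold change -1.19, SE 1.09). Iigp1 stood at 509, 813 and 1651 in WT and 1406, 948 and 773 in Mcph1-/- (log2 fold change 0.20, SE 0.46). Among Mcph1-/- libraries, replicate 1 had the lowest value of Gbp2 and the highest of Gbp3 and Iigp1.

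Within genotypes the 32 genes scattered about as much as all genes tested, in a comparison not matched for abundance. The median of the mean values was 422 for the 32 and 286 for all genes tested. The median SD of log2 values was 0.88 in WT and 0.67 in Mcph1-/-, beside 0.85 and 0.61 over all genes tested. At least 1 library with 3 reads or fewer was found for 7 of the 32 (21.9%) and for 28.8% of all genes tested. Of the 32, 16 stayed within a 5-fold range over all libraries, counted on value + 1, and 7 spanned 100-fold or more (21.9%, beside 24.0% of all genes). The 7 with the wide range were Ddx58, Dhx58, Oas2, Oasl1, Stat2, Isg15 and Ifit3. For 12 of the 32 the 95% interval of the log2 fold change was wider than 4 log2 units. A large change in at least 1 direction lies inside each of these intervals.

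**Figure D4:**
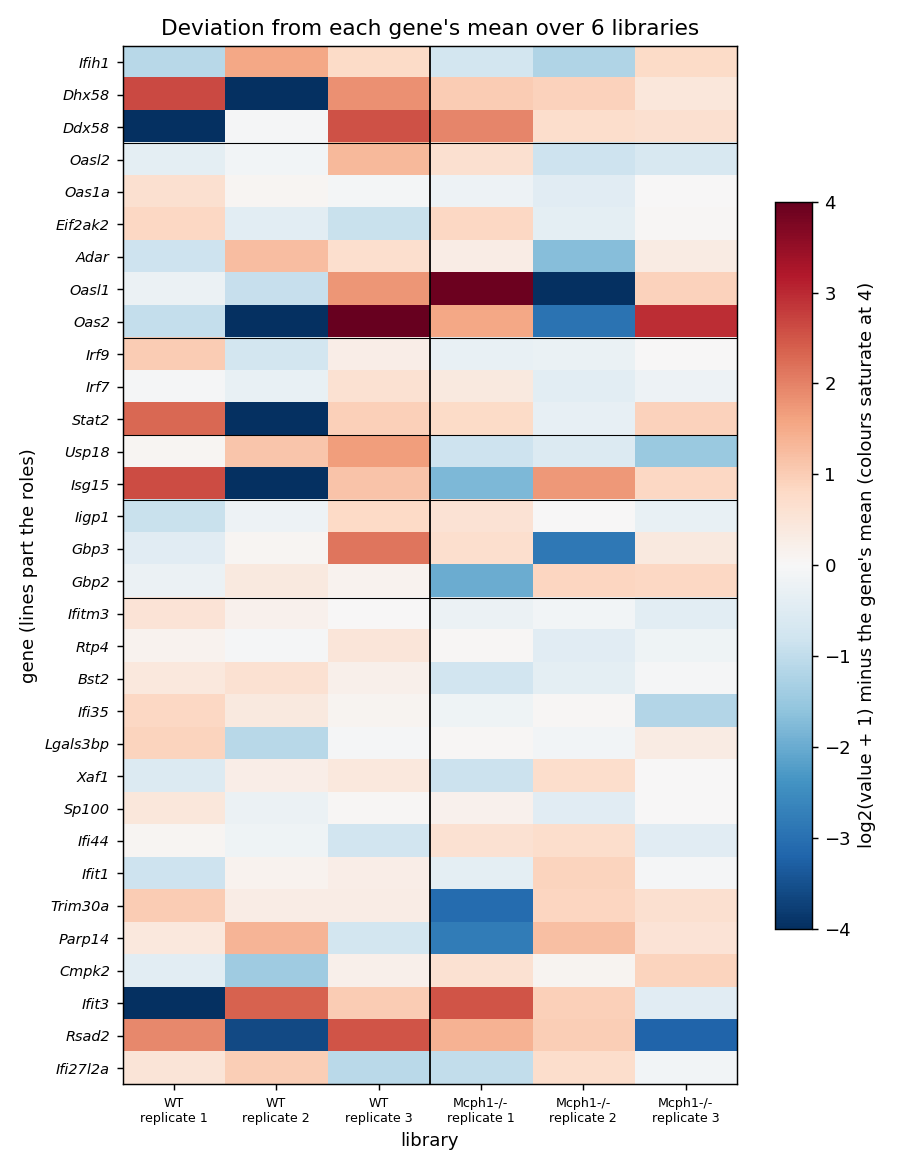
Log2(value + 1) of each gene in each library minus the gene's mean over the 6 libraries, red above and blue below it, with colours saturating at 4 log2 units and a line between genotypes. Dark blue cells lie in different libraries for different genes, 4 of the darkest among them in WT replicate 2 (Dhx58, Oas2, Stat2 and Isg15).

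No library was high or low for the whole set. WT replicate 3 was above the gene's own median for 24 of the 32 genes and had no member at 0 reads, while WT replicate 2 had 3 members at 0 reads. Mcph1-/- replicate 2 was above the median for 10 genes and lowest of all libraries for 9. A WT library was highest for 25 of the 32 genes (78.1%), beside 57.9% of all genes tested, and a WT library was lowest for 15. The summed normalised read count of the 32 was 48602, 38746 and 43239 in WT and 33719, 33559 and 30702 in Mcph1-/-, so that the genotypes did not overlap. Ifitm3 made up 38.8% to 50.3% of these sums. Without it they were 24145, 20091 and 26473 in WT and 19612, 18094 and 18196 in Mcph1-/-. These sums are dominated by abundant genes, carry no test, and were lower in the libraries whose stem cell and neutrophil marker sums were also lower, the part of which was not tested.

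Genes that act before and beside the 32 were described from lists of the pathway. Of 15 receptor, Janus kinase and signalling feedback genes 13 were tested, 8 higher and 5 lower, and 0 passed over all genes by limma. Of the 13, 2 (1 higher and 1 lower) had an unadjusted p under 0.05, beside 7.71% of all genes tested. The median log2 fold change of the 13 was 0.29. Ifngr1, the ligand-binding chain of the interferon gamma receptor, stood at 1606, 403 and 1036 in WT and 1806, 2412 and 2064 in Mcph1-/-. Every Mcph1-/- value was higher (log2 fold change 1.25, SE 0.47; in limma, adjusted p = 0.626). Ptpn6, the phosphatase SHP-1 that dampens Janus kinase signalling, stood at 3613, 4048 and 2250.3 in WT and 1631, 2080.3 and 851 in Mcph1-/-. Every Mcph1-/- value was lower (log2 fold change -1.17, SE 0.37; in limma, adjusted p = 0.622). The kinase Jak2 differed by -1.23 on the log2 scale (SE 0.77), with overlapping groups. The type I receptor chain Ifnar2 stood at 538, 1139 and 478 in WT and 509.9, 524 and 968 in Mcph1-/-, with overlapping groups. Ifnar1 stood at 11.9, 486 and 171 in WT and 273, 8.20 and 297 in Mcph1-/-, near 0 in 1 library of each genotype. Log2 fold changes were 0.29 (SE 0.32) for Jak1 and -0.74 (SE 2.92) for Tyk2, which had 0 reads in WT replicate 3 and Mcph1-/- replicate 1.

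Of 10 other interferon regulatory factor genes 8 were tested, 6 higher and 2 lower, and 0 passed by limma. Only 1 had an unadjusted p under 0.05, beside 7.71% of all genes tested. It was Irf2, which occupies the same elements and represses interferon signalling, and whose loss is known to exhaust stem cells. Irf2 stood at 1835, 1468 and 1505 in WT and 1077, 951 and 1112 in Mcph1-/-, again with no overlap (log2 fold change -0.61, SE 0.23; in limma, adjusted p = 0.626). Irf1 and Irf3 had log2 fold changes of 0.17 (SE 0.63) and 0.06 (SE 0.39), and the low genes Irf2bpl and Irf5 had -2.61 (SE 1.92) and 1.54 (SE 2.12). Of 26 genes of nucleic acid sensing 20 were tested, 12 higher and 8 lower, with 0 passing and 0 at an unadjusted p under 0.05 by limma. Smallest p-values belonged to Rnaseh2c and Rnaseh2b of the RNase that removes RNA from DNA (log2 fold change 0.82, SE 0.37, and 1.31, SE 0.67) and to the kinase Ikbke (4.12, SE 2.20). For Ikbke edgeR gave 2.21, and a pseudocount of 16 gave 1.99. The adaptors Mavs and Sting1 had 2.85 (SE 2.13) and 0.44 (SE 0.41), with 0 reads of Mavs in WT replicate 3. For Mavs edgeR gave 0.67, and a pseudocount of 16 gave 1.49.

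Of 67 further interferon-stimulated genes 51 were tested, 26 higher and 25 lower (median log2 fold change 0.01). By limma 0 passed over all genes, and 4 (1 higher and 3 lower) had an unadjusted p under 0.05. Such a p was found for 7.71% of all genes tested. The smallest p-values belonged to Ifitm2, Lgals9 and Ifitm1. The fourth gene, outside the naming rule given below, was Ube2l6, lower in every Mcph1-/- library (log2 fold change -0.72, SE 0.28). Lgals9, a galectin, stood at 5833, 6625 and 4494 in WT and 8511, 9427 and 7245 in Mcph1-/-, higher in every Mcph1-/- library (log2 fold change 0.58, SE 0.19; in limma, adjusted p = 0.626). Ly6a, the gene of the Sca-1 antigen by which the cells were sorted and itself interferon-inducible, stood at 2057, 2217 and 1358 in WT and 1913, 3216 and 1726 in Mcph1-/- (log2 fold change 0.26, SE 0.30). None of 10 interferon ligand genes, among them Ifnb1, Ifna4 and Ifng, has a value here. The table holds only genes read in 4 or more of the 6 libraries, so a ligand read in fewer would not be listed.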

How the data were processed

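Sorted cells were sequenced as 150-bp pairs after Smart-seq2 amplification, which copies whole transcripts from few cells, per the labels' protocols. Build mm10 and the tools HISAT2, featureCounts, Trim Galore 0.6.6 and DESeq2 appear, without roles, in the submitters' processing notes. The sources used here give no annotation release or strand setting. The authors deposited a signal, the reads of each gene over a size factor of the library. All of the values (100%) were whole multiples of the value of 1 read (tolerance 0.001 reads), so whole reads were recovered. Genes without a symbol (444, with 2.22% to 2.38% of reads) stayed in the tests.

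Tests used limma 3.58.1 with an intensity trend on log2(value + 1), genotype as the only term, all 6 libraries, genes whose mean value reached 10, and Benjamini-Hochberg adjustment over all genes at a threshold of 0.05. edgeR 4.0.16 and DESeq2 1.42.0 (R 4.3.3) ran on the recovered reads as alternatives, and the fits were tested on simulated data. There, the right sign for most large changes was required of every tool. A bound on false calls was required of limma and edgeR, but not of DESeq2. Lengths and positions are from GENCODE vM21 (mm10, 1-based); lengths merge all annotated exons. Of the 32 genes, 12 share exonic bases with another gene and are uncertain: Adar, Dhx58, Eif2ak2, Gbp2, Ifi35, Irf7, Oasl1 and Usp18 with one on the other strand, and Irf9, Parp14, Rtp4 and Sp100 with one on their own strand. Replicates of a genotype differed by more than sampling noise (chi-square per degree of freedom at least 81.5). The genes and lists were chosen with earlier results of these data known. The naming rule took all 32 genes, the 3 genes of smallest p in each pathway list, and 10 pathway genes fixed by name; Tmem173 is listed as Sting1. Of the genes that rule names, 1 is not reported here.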

Additional observations from a re-analysis of the deposited data

How the results depend on the processing

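No interferon-stimulated gene was called with a pseudocount of 16, no filter, a mean of at least 50, values rescaled to the same library total, edgeR, the replicate block, or without any 1 library, and DESeq2 called 1 (Usp18). Over all genes 4 were called, against 2 by edgeR, 238 by DESeq2 and 1 to 4 without 1 library. The median log2 fold change of the 32 stayed below 0 in every setting, from -0.43 without WT replicate 2 to -0.025 without Mcph1-/- replicate 1, and was -0.35 by edgeR and -0.38 by DESeq2. Same-numbered libraries deviated together no more than others (correlations -0.03 to 0.02, beside -0.03 to 0.04 for other numbers). With so much spread between libraries, this check cannot tell whether same-numbered libraries share a day or a batch. With the replicate block 3 genes and 0 of the 32 were called. Usp18, Bst2, Ifitm3 and Ifi35 were lower in Mcph1-/- in every setting. Signs did change for 20 of the 32 genes in some setting. With a pseudocount of 16 the log2 fold change was -0.18 for Isg15 and 0.56 for Oasl1. By edgeR it was -0.84 for Dhx58, 0.27 for Gbp2, -0.60 for Isg15, -0.0071 for Lgals3bp, -0.69 for Oas2, 1.87 for Oasl1, -0.62 for Stat2 and 0.013 for Xaf1. By DESeq2 it was -0.88 for Dhx58, 0.24 for Gbp2, -0.63 for Isg15 and -0.039 for Lgals3bp. It was -0.73 for Oas2, 1.84 for Oasl1 and -0.65 for Stat2, also by DESeq2. Those 7 are the members whose means differed in the direction opposite to the limma log2 fold change. The cause of the sign changes was not tested. Sizes also moved without a change of sign, to 0.27 for Ifit3, -0.19 for Parp14, -0.33 for Trim30a, -0.98 for Rsad2, -1.46 for Irf2bpl and 1.01 for Irf5 by edgeR. Leaving out 1 library gave ranges of -0.15 to 4.02 for Ddx58, -1.42 to 3.33 for Dhx58, -0.039 to 0.82 for Eif2ak2, -0.68 to 0.74 for Gbp2, -0.87 to 0.16 for Ifi27l2a, -0.084 to 0.56 for Ifit1, -0.68 to 3.69 for Ifit3, -0.20 to 0.65 for Iigp1, -0.39 to 0.10 for Irf7, -0.84 to 0.031 for Irf9, -1.61 to 1.94 for Isg15, -0.34 to 0.67 for Lgals3bp, -1.07 to 3.37 for Oas2, -2.49 to 2.21 for Oasl1, -1.47 to 0.52 for Parp14, -2.48 to 0.92 for Rsad2, -0.33 to 0.015 for Sp100, -1.17 to 2.26 for Stat2, -1.76 to 0.22 for Trim30a and -0.47 to 0.31 for Xaf1. Of the 22 other named genes, 9 changed sign there, with ranges of -1.67 to 1.48 for Ifnar1, -0.36 to 0.33 for Ifnar2, -0.31 to 0.92 for Irf1, -0.20 to 0.46 for Irf3, -0.23 to 3.0 for Irf5, -0.018 to 0.49 for Jak1, -0.016 to 0.43 for Ly6a, -0.58 to 1.34 for Mcph1 and -3.45 to 1.59 for Tyk2. Low counts limit genes with under 4 reads in a library, where a 0 allows a value of 2.46 to 3.25 by counting error only. Replicates differed by more than that error.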
